A study of Mus musculus with 16 samples.

Results

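The comparison described here set astrocyte libraries from mice that carried both an Alzheimer's disease (AD) model and a conditional knockout of Rack1 (the group AD CKO, genotype label Rack1 CKO AD) against astrocyte libraries from plain wild-type mice (WT). It rests on 4 of the 8 astrocyte libraries and of the 16 libraries of the whole series, 2 per group, and it measures the net difference made by both changes together. The other 4 astrocyte libraries, 2 with the knockout alone (CKO) and 2 with the AD model and intact Rack1 (AD WT), entered the same normalisation and the same fit, and their levels are given to show where each change stood on its own. Per the series' text the knockout was in microglia, so the astrocytes of the AD CKO group were not the cells in which Rack1 was deleted. The AD transgenes, the Cre driver, the age and sex of the mice and the way astrocytes were isolated are not given in the sources used here. The labels number the libraries of a group as replicates without saying whether they came from separate mice, so the p-values measure the spread between these libraries, which may be technical.

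Astrocytes clear glutamate and potassium from the space around synapses, supply neurons with lactate and lipids, and make most of the cholesterol of the adult brain. In injury, infection and amyloid disease they become reactive: they make more of the intermediate filament proteins GFAP and vimentin, complement proteins, antigen presentation genes and interferon-stimulated genes, and lower part of their resting program. Microglia are the resident macrophages of the brain, and cytokines that they release are known to drive parts of the reactive astrocyte response. RACK1 is a ribosome-associated scaffold protein that also docks protein kinase C and other kinases.

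In the AD CKO libraries the reactive, complement and interferon genes were higher than in WT, with Cxcl10, C3, C4b and Gfap among the largest of them, and the resting astrocyte genes and the cholesterol synthesis genes were lower. All 26 interferon genes tested rose, all 16 antigen presentation genes rose, all 24 homeostatic astrocyte genes fell and all 21 cholesterol synthesis genes fell. The same libraries also had 2.26 times the summed microglial marker level of WT and 0.595 times the summed astrocyte marker level. Of the 15 genes with the largest rises, 11 stood under 10% of their level in the microglia libraries of the same genotype, whereas Cxcl10 and C3 stood above that level.

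Of 20116 genes tested, 4545 (22.6%) rose and 5017 (24.9%) fell at an adjusted p under 0.05. Levels are given in CPM, the share of a library's counts after scaling of the libraries to each other, and a value after ± is a standard deviation over 2 libraries for CPM and a standard error for a log2 fold change. The median log2 fold change of all tested genes was -0.03. Large changes were mostly rises: 2021 genes (10%) rose and 594 (2.95%) fell by at least 2-fold. Both AD CKO libraries lay above both WT libraries for 34.8% of the tested genes and below them for 39.2%. These shares are the background against which the counts of list members below stand.

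The direction of change went with the abundance of the gene. Among genes with a mean over 100 CPM, 12.8% rose and 63.5% fell, with a median log2 fold change of -0.25. Among protein-coding genes with a mean under 1 CPM, 23.9% rose and 6.04% fell, with a median of 0.56. The list counts below were not matched for abundance, so they also stand against the shares at the level of their members. Transcript length showed no such order, with medians between -0.13 and -0.02 over 5 length classes of protein-coding genes at 5 CPM or more.

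**Figure D1:**
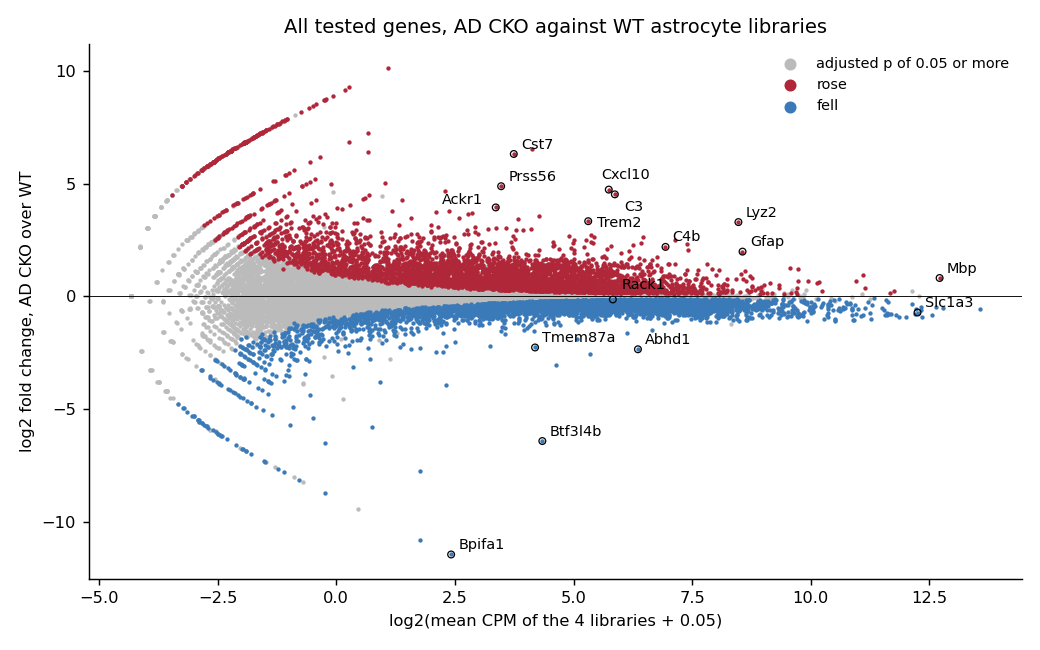
Each point is a tested gene, with log2 of its mean CPM over the 4 libraries (plus 0.05) on the x axis and the log2 fold change of AD CKO over WT on the y axis. Red genes rose, blue genes fell and grey genes did not pass. Most of the abundant genes at the right lie below 0. Among moderately expressed genes, large changes include rises such as Cst7, Cxcl10 and C3 and the falls of Bpifa1 (-11.45) and Btf3l4b (-6.42).

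Total counts ran from 29615853 to 35851170 per astrocyte library. Libraries of 1 group correlated across genes at 0.9883 or more, and their counts differed by more than sampling noise (chi-square of 3.77 to 6.41 per degree of freedom), so none was treated as a copy. On the first principal component (44.2% of the variance) the AD CKO libraries lay at 2.22 and 4.78, between WT (57.8 and 58.5) and CKO (-92.6 and -89.5), and on the second (22.5%) they stood apart at 66.6 and 70 while the other 6 lay between -34.1 and -16.5. Xist, the X inactivation RNA of female cells, was at 0 to 0.167 CPM in WT, CKO and AD CKO and at 13.3 and 15.3 CPM in the AD WT libraries. Rack1 (ENSMUSG00000020372; mm10, chromosome 11, 48800332 to 48806434, plus strand) stood at 61.1 and 57.9 CPM in the WT and at 54.7 and 53.3 CPM in the AD CKO astrocytes. Its log2 fold change was -0.14 ± 0.06 (adjusted p = 0.066). In the matching microglia libraries, where the knockout was aimed, Rack1 was at 96.6 ± 2.05 CPM in WT and 47.5 ± 0.423 CPM in AD CKO.

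Markers of astrocytes were lower in AD CKO. The summed level of 10 astrocyte markers, among them the glutamate transporter genes Slc1a2 and Slc1a3 and the water channel Aqp4, was 21500 and 22000 CPM in WT and 12800 and 13100 CPM in AD CKO. The same sum was 20600 and 21400 CPM in AD WT and 9180 and 9460 CPM in CKO. All 10 markers fell in AD CKO against WT, with log2 fold changes between -1.02 and -0.35. In bulk libraries, fewer cells of a type and less RNA of it per cell cannot be told apart.

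Markers of most other cell types were higher in AD CKO than in WT. The oligodendrocyte sum went from 14300 and 14500 CPM in WT to 19000 and 18900 CPM in AD CKO (1.32 times), and exceeded the astrocyte sum in both AD CKO libraries. Sums of different marker sets do not measure how many cells of each type were present. Only Mbp and Mobp of the 10 oligodendrocyte markers rose, while 7 fell and 1 did not pass. The microglial sum went from 543 and 540 to 1230 and 1220 CPM, and 8 of its 10 markers rose. All 9 endothelial markers and 8 of 9 ependymal and choroid markers rose, with sums 1.40 and 1.30 times those of WT. The sums were 1.60 times WT for mural cells, 1.45 for neurons (82.7 and 83.2 CPM), 2.37 for border macrophages (49.4 and 55.4 CPM), 2.39 for lymphocytes (26.3 and 29.3 CPM) and 1.62 for oligodendrocyte precursors (43.6 and 46.2 CPM). Of the 8 precursor markers 5 rose, 1 fell and 2 did not pass, with log2 fold changes from -5.95 to 2.63. The precursor marker Neu4 had no read in AD CKO and a mean of 0.23 CPM in WT. Neutrophil, erythroid and fibroblast sums were lower, at 0.53, 0.674 and 0.773 times WT, although 5 of the 8 fibroblast markers rose and 2 fell (median log2 fold change 0.29). Of the 8 lymphocyte markers tested 4 rose, 1 fell and 3 did not pass, with log2 fold changes from -3.84 to 6.94. Among them, Cd3d, Cd4 and Cd8a of T cells had no read in the WT libraries and had means of 0.312, 0.442 and 0.457 CPM in AD CKO. The call of Cd4 was lost without AD CKO replicate 1 (log2 fold change 5.43). The part of these other cell types in the results below was not tested.

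**Figure D2:**
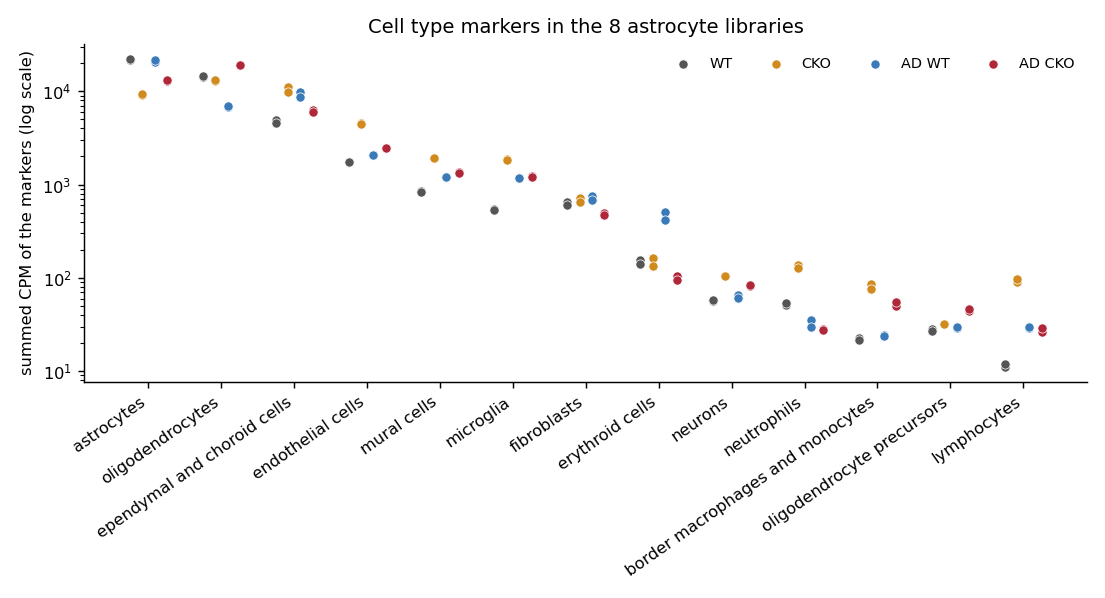
Summed CPM (log scale) of the markers of 13 cell types in each of the 8 astrocyte libraries, with 2 points per group. The AD CKO astrocyte sum lies between those of CKO and of WT, its oligodendrocyte sum is the highest of the 4 groups, and its microglial sum lies near that of AD WT.

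Because the astrocyte markers fell together, the fit was repeated with the libraries scaled to an equal sum of the 10 astrocyte markers, an alternative chosen after seeing the data. This adds about 0.75 to the log2 fold changes, and less for genes with no read in a group, such as Bpifa1, Cd3d, Cd4 and Cd8a. The homeostatic list shares genes with these markers, so its own values under this scaling are fixed in part by the scaling. All directions below are those of the main scaling, and the lists described as fallen move to medians near or above 0 under the astrocyte scaling.

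The 24 homeostatic astrocyte genes, which carry out transport, coupling and metabolism in resting astrocytes, all fell, with a median log2 fold change of -0.73 and a range from -1.02 to -0.35. With the astrocyte scaling the median was 0.02. Slc1a3, the glutamate transporter GLAST, was at 5960 and 6140 CPM in WT and at 3640 and 3720 CPM in AD CKO, a log2 fold change of -0.72 ± 0.04 (adjusted p = 1.05e-12). Gjb6, which encodes a connexin of gap junctions, went from 1670 and 1640 to 824 and 812 CPM. Gja1, which encodes the other main connexin of astrocytes, went from 4030 and 4230 to 2390 and 2470 CPM. The 2 groups did not overlap for any of the 24 genes.

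Within that list the sizes differed. Gjb6, the proteoglycan gene Gpc5 (-1.02 ± 0.04) and the sodium pump subunit gene Atp1b2 (-1.01 ± 0.04) had the largest falls. Aqp4 (-0.35 ± 0.04), the potassium channel gene Kcnj10 (-0.39 ± 0.05) and the glutamate-to-glutamine enzyme gene Glul (-0.51 ± 0.04) had smaller ones. The glycolytic enzyme gene Aldoc, an abundant astrocyte transcript, went from 6880 and 6750 to 3610 and 3580 CPM. CKO was the group with the lowest mean for 20 of the 24 genes and AD CKO for the other 4.

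Transcription factors of the astrocyte lineage fell less. Of 20 tested, 13 fell, none rose and 7 did not pass, with a median of -0.37 (0.38 with the astrocyte scaling). The largest falls were those of Lhx2 (-0.88 ± 0.06), a homeobox factor of the forebrain, and Id2 (-0.84 ± 0.04), an inhibitor of helix-loop-helix factors. Sox9, a factor needed to make astrocytes, went from 573 and 566 to 471 and 442 CPM (-0.32 ± 0.04, adjusted p = 1.43e-06). The Notch target Hes1 and the factor Id3 did not pass, both with a log2 fold change of 0.03.

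The receptors and secreted factors by which astrocytes read and shape synapses were also mostly lower. Of 21 tested glutamate, GABA, purine and adrenergic receptor genes, 16 fell and none rose, with a median of -0.41. Adrb1, the beta-1 adrenergic receptor, went from 28.3 and 32 to 12.9 and 12.3 CPM (-1.26 ± 0.09, adjusted p = 2.03e-10). The GABA-A receptor subunit gene Gabrg1 went from 635 and 687 to 334 and 354 CPM, and the adenosine receptor gene Adora2b from 169 and 167 to 90.3 and 86.7 CPM. Of 15 synapse-modulating genes 11 fell and 1 rose, with a median of -0.59. The myelination factor gene Lgi4 fell by 0.97 ± 0.06 on the log2 scale, while the ligand gene Wnt5a rose by 0.73 ± 0.10. With the astrocyte scaling the medians of these lists were 0.32 and 0.16.

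All 21 genes of cholesterol synthesis fell, from the first steps of the pathway to the last, with a median of -0.76. With the astrocyte scaling the median was -0.01, and 4 of the 21 still fell. Msmo1, an enzyme of sterol demethylation, went from 1890 and 2000 to 963 and 1000 CPM (-0.99 ± 0.04). Srebf2, the transcription factor that drives the pathway, fell by 0.35 ± 0.05 and Ebp, an isomerase, by 0.22 ± 0.08 on the log2 scale. The call of Ebp was lost without WT replicate 1 (-0.14), without AD CKO replicate 2 (-0.13) and with DESeq2 (-0.21, adjusted p = 0.0627).

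Energy metabolism genes were lower by smaller amounts. Beside them, 63.5% of all tested genes with a mean over 100 CPM fell, with a median of -0.25. These lists were not compared with genes of equal abundance. Of 38 nuclear genes of oxidative phosphorylation 30 fell and none rose (median -0.38), and AD CKO had the lowest mean of the 4 groups for 35 of them. Of 13 mitochondrially encoded protein genes 9 fell and none rose (median -0.24), although the number that fell was 2 with an offset for transcript length. Of 22 glycolysis and lactate genes 12 fell and 2 rose (median -0.28). The lactate dehydrogenase gene Ldhb fell by 0.72 ± 0.05, and the monocarboxylate transporter gene Slc16a3 rose by 1.54 ± 0.20 from 2.12 and 1.82 to 6.19 and 5.25 CPM, which was 3.52% of its level in AD CKO microglia. Of 24 lipid transport and oxidation genes 16 fell and 3 rose (median -0.29). With the astrocyte scaling these 4 medians were 0.36, 0.51, 0.47 and 0.46.

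Of the genes that mark reactive astrocytes in general, 12 of the 13 tested passed upward and none fell, with a median of 1.05. Gfap (ENSMUSG00000020932), the filament protein by which reactive astrocytes are recognised, was at 152 and 153 CPM in WT and 604 and 599 CPM in AD CKO, a log2 fold change of 1.98 ± 0.05 (adjusted p = 3.23e-19). Its mean was 214 CPM in CKO and 239 CPM in AD WT, and no library of another group reached the AD CKO libraries. Vim, which encodes vimentin, went from 132 and 130 to 274 and 245 CPM. Serpina3n, a serine protease inhibitor of reactive astrocytes, went from 30.8 and 27.7 to 60 and 61.2 CPM (1.05 ± 0.07), while its means in CKO and AD WT were 27.7 and 31.4 CPM. Osmr, the oncostatin M receptor, and S1pr3, a sphingosine phosphate receptor, rose by 0.88 ± 0.09 and 0.98 ± 0.07. Cd44, a hyaluronan receptor, was the member that did not pass (0.21 ± 0.13).

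Lists of genes known from neuroinflammatory (A1) and ischaemic (A2) reactive astrocytes were both mostly higher. For A1, 9 of 11 tested genes rose and none fell (median 1.29), among them Iigp1 (2.05 ± 0.10) and Gbp2 (1.73 ± 0.07), both interferon-induced GTPases, and the proteasome subunit gene Psmb8 (1.52 ± 0.07). The A1 marker Amigo2, an adhesion protein gene, was at 35.3 and 37.8 CPM in WT and 35.3 and 36.3 CPM in AD CKO, a log2 fold change of -0.03 ± 0.08. For A2, 8 of 11 rose and none fell (median 1.11), with the surface protein genes Cd109 (1.42 ± 0.11) and Tm4sf1 (1.11 ± 0.04) among them. Cd14, a lipopolysaccharide co-receptor in the A2 list, rose by 1.42 ± 0.11 and stood at 4.26% of its level in AD CKO microglia. Of 15 disease-associated astrocyte genes 9 rose and 4 fell. Those that fell were Apoe (-0.55 ± 0.11), Clu (-0.49 ± 0.03), Cst3 (-0.81 ± 0.12) and Ctsb (-0.13 ± 0.04), and the genes that rose included Myoc, which encodes the secreted protein myocilin, from 6.85 and 5.35 to 11.8 and 12.3 CPM. The fall of Apoe did not pass without AD CKO replicate 2 (-0.49, adjusted p = 0.0689), nor that of Ctsb without AD CKO replicate 1 (-0.12, adjusted p = 0.0612).

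Complement genes, the proteins of which tag synapses and debris for removal, rose in 14 of 15 cases (median 1.69), and C2 was the one that fell (-0.73 ± 0.14). C3 (ENSMUSG00000024164; mm10, chromosome 17, 57203970 to 57228136, minus strand), the central component and a product of reactive astrocytes, was at 4.7 and 5.04 CPM in WT and at 111 and 113 CPM in AD CKO. This was 23 times the WT mean (log2 fold change 4.52 ± 0.09, adjusted p = 1.58e-20). The single changes gave 12.4 CPM (CKO) and 18.6 CPM (AD WT), so both AD CKO libraries stood above all libraries of both groups. C4b, which acts before C3 in the classical pathway and is also made by astrocytes, was at 42.8 and 45.1 CPM in WT and at 201 CPM in both AD CKO libraries (2.19 ± 0.06), against 56.7 CPM in CKO and 47.6 CPM in AD WT. Over the whole list, CKO had the highest mean of the 4 groups for 8 of the 15 genes and AD CKO for 6. The summed complement level was 1690 and 1630 CPM in CKO and 1310 CPM in both AD CKO libraries.

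The members differed in how they stood against microglia. The C1q chains C1qa, C1qb and C1qc, which microglia make, rose by 2.36 ± 0.08, 2.51 ± 0.05 and 1.69 ± 0.08 and stood at 3.22% to 3.75% of their level in the AD CKO microglia libraries. The receptors C3ar1 and C5ar1 stood at 3.32% and 3.29%. C3, by contrast, stood at 108% of its level in those microglia libraries, C4b at 497%, and the C1 inhibitor gene Serping1, which rose by 1.29 ± 0.07, at 1220%. Levels of the astrocyte and the microglia libraries were normalised separately, and the sum of the 10 microglial markers was 3.5% of that in the AD CKO microglia.

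**Figure D3:**
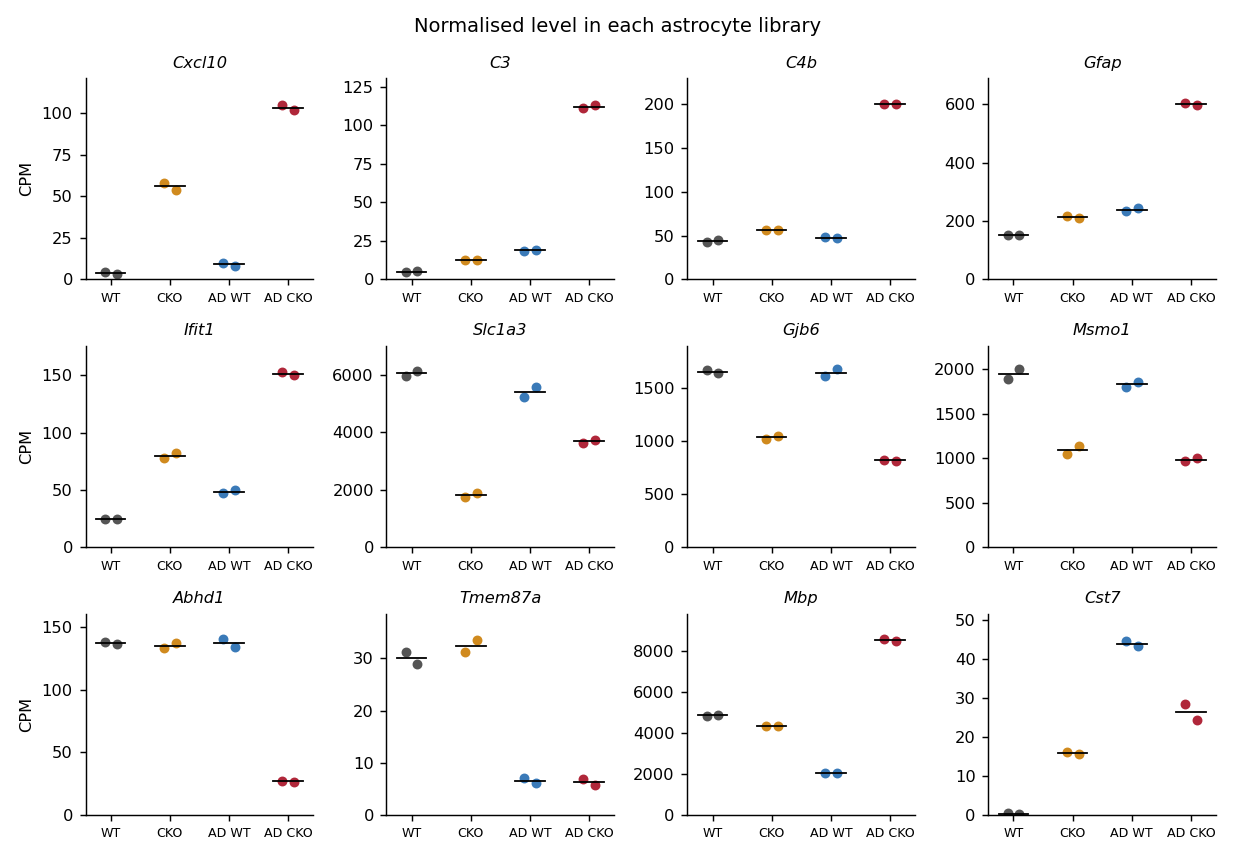
CPM of 12 genes in each of the 8 astrocyte libraries, with a bar at the mean of the 2 libraries of a group. Cxcl10, C3, C4b, Gfap and Ifit1 are highest in AD CKO, Gjb6 and Msmo1 are lowest there, Abhd1 is low only in AD CKO, and Tmem87a is low in both groups with the AD model.

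The interferon response was the list with the highest median. All 26 tested members rose, with a median log2 fold change of 1.77 and a range from 0.87 to 4.73, and the groups did not overlap for any of them. Cxcl10 (ENSMUSG00000034855; mm10, chromosome 5, 92346638 to 92348889, minus strand), a chemokine that draws T cells, was at 4.38 and 3.43 CPM in WT and 105 and 102 CPM in AD CKO, which was 26.5 times the WT mean (4.73 ± 0.10, adjusted p = 3.04e-19). It was at 56 CPM in CKO and 8.9 CPM in AD WT, and AD CKO was above every other library. Its AD CKO level was 132% of that in the microglia libraries of the same genotype.

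Effectors, regulators and sensors of the pathway all rose. Ifit1 and Ifit3, which block translation of viral RNA, went from 24.8 and 24.7 to 153 and 150 CPM and from 55.7 and 56.8 to 287 and 274 CPM. Isg15, a ubiquitin-like modifier, went from 4.31 and 3.8 to 21.5 and 21.1 CPM, and Usp18, which removes it and dampens the receptor, rose by 2.61 ± 0.08. Of the transcription factors, Irf7 rose by 2.37 ± 0.07, Irf9 by 1.43 ± 0.06 and Stat2 by 1.00 ± 0.08. The RNA sensors Ifih1 and Ddx58 rose by 1.04 ± 0.09 and 1.53 ± 0.08. In 18 of the 26 genes AD CKO had the highest mean of the 4 groups and in the other 8 CKO did. Against the AD CKO microglia, 14 of the 26 were higher in the astrocyte libraries, Ifit1 at 715%, and none was under 10% of the microglial level.

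Interferon acts on these genes through a complex that includes STAT2 and IRF9, which binds a short promoter element rich in GAAA. The windows run from 250 bases before to 50 bases after the annotated start, from RefSeq on GRCm38.p6. Those of 3 members that held a match are shown to let the element be seen beside the values above. They are given 5′ to 3′ on the gene's strand, and capitals mark matches to GAAANNGAA on either strand, overlapping matches run together. The windows lie at chr5:92348840-92349139 (minus strand) for Cxcl10, chr19:34640639-34640938 (plus strand) for Ifit1 and chr4:156200769-156201068 (minus strand) for Isg15.
Cxcl10: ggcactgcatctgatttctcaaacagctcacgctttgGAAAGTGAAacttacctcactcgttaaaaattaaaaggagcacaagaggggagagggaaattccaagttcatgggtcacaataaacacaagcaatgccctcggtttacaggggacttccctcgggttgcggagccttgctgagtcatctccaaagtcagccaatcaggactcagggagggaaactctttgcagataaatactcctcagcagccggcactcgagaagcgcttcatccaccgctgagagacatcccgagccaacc
Ifit1: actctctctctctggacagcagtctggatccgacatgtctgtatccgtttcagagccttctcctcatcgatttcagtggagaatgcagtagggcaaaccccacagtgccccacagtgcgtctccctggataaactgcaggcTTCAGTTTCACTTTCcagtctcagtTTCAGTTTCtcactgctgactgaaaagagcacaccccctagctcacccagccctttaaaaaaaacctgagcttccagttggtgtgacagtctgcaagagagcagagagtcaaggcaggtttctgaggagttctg
Isg15: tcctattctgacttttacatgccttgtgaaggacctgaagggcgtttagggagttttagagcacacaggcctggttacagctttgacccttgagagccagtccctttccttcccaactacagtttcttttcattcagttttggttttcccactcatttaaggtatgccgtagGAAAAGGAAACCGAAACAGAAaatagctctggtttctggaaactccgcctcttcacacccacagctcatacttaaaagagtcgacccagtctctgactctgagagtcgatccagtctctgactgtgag
Cxcl10 held 1 match, and Ifit1 and Isg15 held 3 each. Of the 26 members 20 had a window in the table, and 13 of these (65%) held the letters, against 9.76% of the 27025 symbols of the whole table. The members with a match included Stat2, Bst2, Rsad2 and Gbp2, and the window of Irf7 held no match. A match describes the letters only, and binding was not measured.

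Antigen presentation genes rose in all 16 cases (median 1.23). For 11 of the 16 CKO had the highest mean of the 4 groups, and for 5 AD CKO did. The class I genes H2-D1 and H2-K1 and the light chain gene B2m went from 460 and 442 to 1080 and 1060 CPM, from 322 and 305 to 567 and 548 CPM and from 517 and 505 to 1200 and 1170 CPM. The peptide transporter gene Tap1 rose by 1.08 ± 0.08 and Nlrc5, the activator of class I genes, by 1.91 ± 0.22. None of the 16 exceeded its level in AD CKO microglia. The class II genes Cd74, H2-Aa and H2-Ab1 rose by 1.01 ± 0.07, 1.08 ± 0.10 and 1.09 ± 0.09 and stood at 5.59%, 6.71% and 6.4% of it, against 17.5% for H2-D1 and 33.6% for H2-K1. Whether the rise of the microglial marker sum in these libraries had a part in these values was not tested.

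Of 23 cytokine and NF-kB target genes 17 rose and 1 fell (median 1.15), most from low levels. CKO had the highest mean of the 4 groups for 20 of the 23 and AD CKO for 3. The summed level of the list was 1.16 times WT in AD CKO and 2.4 times WT in CKO. Ccl3, a chemokine of macrophages, went from 1.95 and 2.47 to 19.4 and 17.3 CPM, Tnf from 0.661 and 0.309 to 4.99 and 5.75 CPM and the B-cell chemokine gene Cxcl13 from 0.0696 and 0.618 to 8.7 and 9.85 CPM. These 3 stood at 6.19%, 12.2% and 2.65% of their AD CKO microglial level. The adhesion molecule gene Icam1 rose from 20.1 and 19.8 to 44.6 and 44.1 CPM, while Vcam1 fell by 0.22 ± 0.04. Il1b was at 5.22 and 3.56 CPM in WT and 4.96 and 5.51 CPM in AD CKO, and its groups overlapped, although it passed without WT replicate 1 (0.56, adjusted p = 0.0283). The inhibitor gene Nfkbia, a direct readout of NF-kB, did not pass (0.13 ± 0.07), although it did when only the 4 compared libraries were fitted (0.17, adjusted p = 0.00415) and with no filter on low counts (0.14, adjusted p = 0.0326).

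Among genes with a mean of at least 5 CPM, the 15 with the largest log2 fold changes upward were Cst7, Prss56, Cxcl10, C3, Ackr1, Gpr84, Tlr13, Cd84, Clec5a, Clec7a, Trem2, Lyz2, Lilrb4a, Ccl3 and C3ar1. Cst7, a cystatin of disease-associated microglia, led them: it was at 0.348 and 0.309 CPM in WT and 28.4 and 24.3 CPM in AD CKO (6.31 ± 0.17, adjusted p = 7.46e-18). Trem2, the lipid receptor of microglia, went from 7.76 and 6.56 to 75.5 and 68.5 CPM, and the lysozyme gene Lyz2 from 64.7 and 67.1 to 660 and 630 CPM. Of the 15, 11 stood under 10% of their level in AD CKO microglia, between 2.59% for the receptor gene Tlr13 and 8.45% for Lyz2. In 9 of the 15 the CKO astrocyte libraries were higher than AD CKO.

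Besides Cxcl10 and C3, only Prss56 and Ackr1 among the 15 exceeded their microglial level, which was close to 0 for both. Prss56, a secreted serine protease gene, went from 0.696 and 0.742 CPM in WT to 21.7 and 21 CPM in AD CKO (4.88 ± 0.15) and was at 28.6 CPM in AD WT and 9.58 CPM in CKO. Ackr1, the chemokine-scavenging receptor of venules, went from 1.25 and 1.24 to 18.9 and 19.4 CPM (3.94 ± 0.12), and was at 213 CPM in CKO and 8.72 CPM in AD WT.

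**Figure D4:**
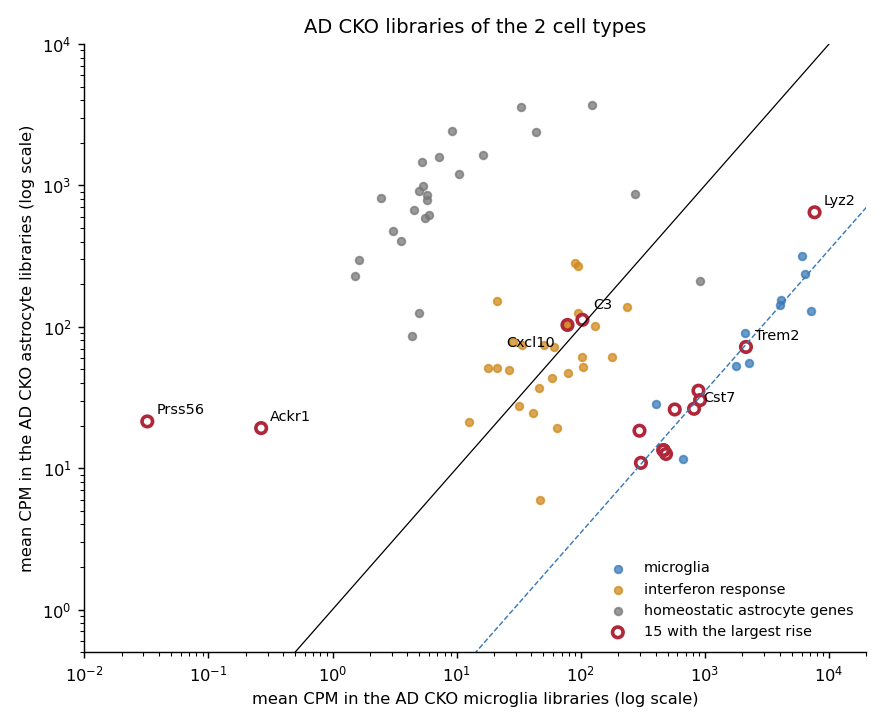
Mean CPM in the AD CKO microglia libraries (x axis, log scale) against mean CPM in the AD CKO astrocyte libraries (y axis, log scale) for the microglial markers, the interferon genes, the homeostatic astrocyte genes and the 15 genes with the largest rises (open circles). The solid line marks equal values and the dashed line 3.5% of the microglial value, the level of the microglial marker sum. Most open circles lie along the dashed line, while Cxcl10, C3, Prss56 and Ackr1 lie on or above the solid line.

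The 15 largest falls formed a mixed set. Abhd1 (ENSMUSG00000006638; mm10, chromosome 5, 30950066 to 30955091, plus strand), a hydrolase-family gene, was at 138 and 136 CPM in WT and 27.3 and 26.3 CPM in AD CKO (-2.35 ± 0.06, adjusted p = 7.35e-19). It was at 135 CPM in CKO and 137 CPM in AD WT, so only the 2 AD CKO libraries were low. Tmem87a, a membrane protein gene, was at 31.2 and 29 CPM in WT and 6.88 and 5.64 CPM in AD CKO (-2.27 ± 0.11), and the AD WT libraries were as low (7.01 and 6.06 CPM) while CKO stood at 32.4 CPM. In the microglia libraries Tmem87a was at 31.6 CPM in WT, 7.07 CPM in CKO, 5.92 CPM in AD WT and 24.5 CPM in AD CKO, an order that differs from that of the astrocytes.

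Bpifa1, a secretory protein gene of airway epithelium, was at 11.4 and 9.71 CPM in WT and had no read in AD CKO, CKO or AD WT, which made it at least 129-fold lower in AD CKO (3 reads in each library as the floor). The secretory granule gene Chga fell by 2.21 ± 0.17, the retinoic acid-degrading enzyme gene Cyp26b1 by 2.02 ± 0.19, the adhesion gene Kirrel2 by 1.61 ± 0.06 and the ribonuclease gene Rnase1 by 1.53 ± 0.12 on the log2 scale. The endothelial membrane gene Tmem100 went from 148 in both WT libraries to 53.9 and 52.1 CPM, and the endocytosis gene Fcho1 fell by 1.49 ± 0.16. Another 5 of the 15, Btf3l4b, Vcp-rs, Xlr3b, Pcdhgb8 and Pcdhb6, belong to families or pairs of near-identical copies, between which reads could be split in counting, and their falls (-6.42, -2.57, -1.54, -1.66 and -1.47) are uncertain.

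Genes of amyloid processing moved in both directions, with 4 rising and 15 falling of 24 (median -0.19, 0.56 with the astrocyte scaling). App, the amyloid precursor gene, was at 677 and 666 CPM in WT and 718 and 725 CPM in AD CKO (0.10 ± 0.04, adjusted p = 0.0421), and lost this call when any 1 of the 4 libraries compared was left out (0.09 to 0.12). The protease gene Bace2 rose by 1.17 ± 0.09, and Mme, which encodes the amyloid-degrading enzyme neprilysin, rose from 2.3 and 2.32 to 6.44 and 6.98 CPM. Of 28 lysosome and autophagy genes 6 rose and 12 fell (median -0.10). Cd68 and Ctss, both abundant in microglia, rose by 2.48 ± 0.08 and 2.06 ± 0.05 and stood at 4.15% and 3.66% of their AD CKO microglial level, whereas the cholesterol exporter gene Npc1 fell by 0.56 ± 0.05.

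Matrix genes moved both ways. Of 19 tested, 6 rose and 11 fell (median -0.37, and 0.37 with the astrocyte scaling). The astrocyte proteoglycan genes Bcan (-0.84 ± 0.04) and Cspg5 (-0.75 ± 0.04) fell, and the basement membrane genes Col4a1 (0.96 ± 0.06), Col4a2 (0.99 ± 0.08), Fn1 (0.98 ± 0.06) and Lamb2 (0.75 ± 0.06) rose. Of 19 trophic and glial signalling genes 10 rose and 6 fell (median 0.24), with falls of Cxcl14 (-1.07 ± 0.05), Bdnf (-0.96 ± 0.21) and the vessel growth factor gene Vegfa (-0.71 ± 0.05) and rises of Cntf (1.37 ± 0.16) and Igf1 (1.30 ± 0.11). The endothelial marker sum was 1.40 times that of WT beside these, and its part was not tested.

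The myelin program fell in 18 of 24 genes and rose in 3 (median -0.28, and 0.47 with the astrocyte scaling), but its largest changes were the rises of Mobp and Mbp. Mbp, the myelin basic protein gene, was at 4830 and 4900 CPM in WT and 8610 and 8500 CPM in AD CKO (0.81 ± 0.03, adjusted p = 3.27e-15), and Mobp at 1510 and 1490 against 2880 in both (0.94 ± 0.04). Mag, Mog and Cnp, which encode other myelin proteins, fell by 0.31 ± 0.04, 0.23 ± 0.04 and 0.28 ± 0.04, and the lineage factor Olig2 by 0.75 ± 0.05. The AD WT mean was below both groups for Mbp (2030 CPM), Mobp, Mag, Mog and Cnp, but not for Olig2 (100 CPM against 82.6 and 84.3 in AD CKO).

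Ribosomal protein genes, of interest because RACK1 sits on the ribosome, hardly moved between WT and AD CKO: 3 of 79 rose and 2 fell, with a median of 0.05, both far below the background shares. The 3 became 19 when only the 4 compared libraries were fitted. Their summed level was 1.05 times WT in AD CKO but 2.15 times WT in CKO, which had the highest mean for 78 of the 79. Of 38 translation factors 5 rose and 9 fell (median -0.05), and of 17 RACK1 binding partners 3 rose and 5 fell (median -0.08), with Stat3, a transcription factor of the reactive response, among those that rose (0.59 ± 0.06). Stress and cell state lists were mixed. Unfolded protein response genes gave 7 up and 13 down of 25 (median -0.12), NRF2 targets 3 and 8 of 21 (-0.20), p53 targets 9 and 6 of 21 (0.14) and glucocorticoid-induced genes 4 and 7 of 15 (-0.03). Heat shock genes gave 8 up and 2 down of 14 (0.21), with Hspa1b at 34.8 and 36 CPM in WT and 71.5 CPM in both AD CKO libraries.

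Circadian genes fell in 12 of 17 cases and rose in 1 (median -0.34, and 0.41 with the astrocyte scaling), with Nr1d1 from 301 and 303 to 190 and 196 CPM. Immediate early genes, which tissue dissociation also induces, rose in 13 of 22 cases and fell in 1 (median 0.45), among them Jun (0.55 ± 0.06), Junb (0.74 ± 0.07) and Ier3 (1.01 ± 0.08), and the part of cell isolation was not tested. Of 23 proliferation genes 13 rose and 1 fell (median 0.71), from low levels: Top2a was at 0.765 and 0.742 CPM in WT and 2.65 and 3.25 CPM in AD CKO, and Mki67 at 0.591 and 0.557 against 2.2 and 2.29 CPM.

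**Figure D5:**
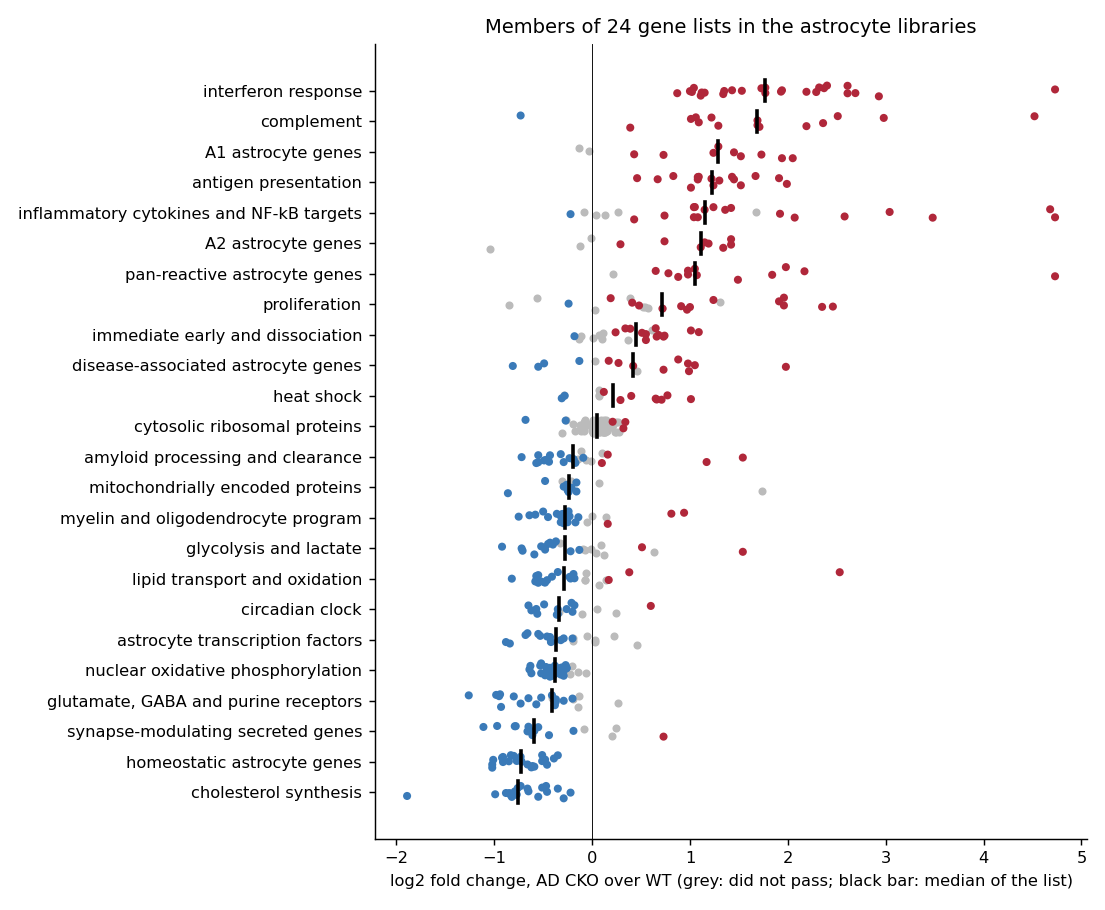
Log2 fold changes of AD CKO over WT (x axis) for the tested members of 24 gene lists, ordered by their median (black bar). Red members rose, blue members fell and grey members did not pass. The interferon and antigen presentation lists lie wholly to the right of 0, as does the complement list apart from C2, and the homeostatic and cholesterol synthesis lists lie wholly to its left.

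The net difference can be set against the sum of the differences made by each change alone. This is the interaction (AD CKO minus AD WT minus CKO plus WT, in log2), which is 0 where the net difference equals that sum. It was above 0 for 5940 genes (29.5%) and below 0 for 5690 (28.3%), with a median of -0.02. Of the 79 ribosomal protein genes 77 passed below 0 and none above (median -1.54). C3 (1.24 ± 0.12, adjusted p = 1.4e-08), C4b (1.71), Gfap (0.85), Serpina3n (1.03), Osmr (1.49) and Stat2 (2.18), all at an adjusted p of 1.99e-08 or less, were above 0, so the AD CKO libraries held more of these transcripts than the single differences add up to. Their lists as a whole did not share this direction. Of 15 complement genes 2 passed above 0 and 9 below. The counts were 7 and 11 of 26 interferon genes, 5 and 5 of 13 general reactive genes and 0 and 8 of 11 A1 genes. For antigen presentation they were 3 and 11 of 16, and for cytokine and NF-kB target genes 0 and 16 of 23. The sizes for the named genes depended on the processing. The values of C3 and C4b were 0.79 and 1.26 with the offset for transcript length and 0.72 and 1.18 with the astrocyte scaling, and still passed. Neither Cxcl10 (-0.31 ± 0.15, adjusted p = 0.0753) nor Ifit1 (-0.04) passed. Cxcl10 did pass below 0 without WT replicate 1 (-0.47, adjusted p = 0.0244) and without AD WT replicate 2 (-0.42, adjusted p = 0.023). With the astrocyte scaling both passed below 0, Cxcl10 at -0.84 (adjusted p = 0.000778) and Ifit1 at -0.57 (adjusted p = 1.17e-05).

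Of the genes with the opposite sign, Cst7 (-6.32), Ackr1 (-6.28), the oxysterol-forming enzyme gene Ch25h (-5.97), the neutrophil chemokine gene Cxcl1 (-5.73) and the cathepsin gene Ctse (-4.37) had the most negative values among genes that also passed AD CKO against WT. In each of these 5 the CKO or the AD WT mean was above the AD CKO mean. Ch25h was at 156 CPM and Cxcl1 at 122 CPM in CKO, and at 9.06 and 9.9 CPM and 3.04 CPM in the AD CKO libraries. The largest positive values were those of the neuronal kinesin gene Kif5a (4.15), the potassium channel gene Kcna6 (3.37), Myoc (3.19), the endosomal tethering gene Vps8 (2.95) and Chga (2.93). Kif5a was at 43.6 and 45.3 CPM in WT, 132 and 135 CPM in AD CKO, 21.1 CPM in CKO and 15.9 CPM in AD WT. The CKO libraries had the lowest astrocyte marker sum of the 4 groups, and the AD WT libraries were the only ones with Xist reads above 1 CPM. The part of either in the interaction was not tested, and with the astrocyte scaling 2854 genes were above and 9632 below 0.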

How the data were processed

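Total RNA of astrocytes and microglia was reverse transcribed with a SMART-Seq v4 low-input kit from 10 ng and sequenced in pairs of 150 bases, per the labels' protocols. Per the submitters' processing notes, HISAT2, StringTie and fastp were used, on mm10. The counting step is not given in the sources used here. The authors deposited expected counts per gene, which need not be whole, in 1 table per cell type. These were rounded to whole numbers here. Gene coordinates came from GENCODE M21, which matched 52125 of 56980 features (91.5%), and promoter windows from RefSeq on GRCm38.p6.

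All 8 astrocyte libraries were filtered by edgeR's filterByExpr, scaled by TMM and fitted with edgeR 4.0.16 (R 4.3.3, limma 3.58.1) as 4 group means. The contrasts AD CKO minus WT and the interaction were tested two-sided with the robust quasi-likelihood test. P-values were adjusted by Benjamini-Hochberg over all 20116 genes, with a threshold of 0.05. The standard error is the log2 fold change divided by the square root of F. The common biological coefficient of variation was 0.0579. The test was checked on simulated data. Microglia libraries were scaled separately and used for levels only.

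The members and gene lists were chosen with earlier results of these data known. Genes named were Rack1, the 15 largest rises and 15 largest falls with a mean of at least 5 CPM and no overlap between groups (1 of the falls is not reported here), for each list at most 6 that passed with the lowest p, other list members, and the 5 largest interactions in each direction. Alternatives were DESeq2 1.42.0, limma-voom, other size factors, filters and sets of libraries, each library left out, a length offset and a replicate block. A scaling to the astrocyte marker sum was added after seeing the data.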

Additional observations from a re-analysis of the deposited data

Results flagged for a closer look

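The difference between AD CKO and AD WT was not the same as that between CKO and WT for several named genes, by edgeR's test of the interaction. Values above 0 were found for C3 (1.24), C4b (1.71), Gfap (0.85), Serpina3n (1.03), Osmr (1.49), Stat2 (2.18), Kif5a (4.15), Kcna6 (3.37), Myoc (3.19), Vps8 (2.95) and Chga (2.93). Values below 0 were found for Rack1 (-1.21), Cst7 (-6.32), Ackr1 (-6.28), Ch25h (-5.97), Cxcl1 (-5.73) and Ctse (-4.37). Over all tested genes, 5940 were above 0 and 5690 below. In Rack1 this difference lies in astrocyte libraries, where its mean was 99.1 CPM in CKO and 74.8 CPM in AD WT.

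Xist had a mean of 14.3 CPM in the AD WT astrocyte libraries, which the comparison of AD CKO with WT does not use, against at most 0.167 CPM in any other astrocyte library.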

How the results depend on the processing

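Of the 143 named genes followed through 19 alternatives, 108 kept their side of the threshold, and their direction where they passed, in every alternative that tested them. Apart from the scaling to the astrocyte marker sum, no alternative turned the direction of a named gene that passed, or moved a count over all genes by more than 1.5 times. Amigo2, Hes1, Id3 and the interaction of Ifit1, all near 0 and none past the threshold, changed sign or reached 0 in some of them. With 1 library left out, 3732 to 4731 genes rose and 3846 to 5152 fell, and the interaction was above 0 for 5549 to 5891 genes and below 0 for 5080 to 5397. Without a library its group holds 1 sample, which is assumed to vary like the others. Deviations of libraries with the same replicate number correlated by only 0.0051 to 0.0477 over all genes. Some list sums still differed in 1 direction in all 4 groups. The ribosomal protein sum was higher in replicate 1 (3590 against 3310 CPM in WT, 3770 against 3500 CPM in AD CKO). The disease-associated astrocyte sum was also higher there, and the cholesterol synthesis sum was lower. Whether the numbers mark a pairing or a batch is not given and was not tested. With the replicate block 4865 genes rose and 5581 fell, and the interaction was above 0 for 6194 and below for 5934.

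Small counts varied most. Ribosomal protein genes that rose numbered 5 with DESeq2, 8 without a filter on low counts, 19 with only the 4 compared libraries, 16 with the replicate block, 12 with the length offset and the replicate block, and 2 to 7 with a library left out. Translation factors that fell numbered 16 with the length offset and the replicate block, and 3 to 9 with a library left out. RACK1 binding partners that fell numbered 8 with the length offset and the replicate block, and mitochondrially encoded genes that fell numbered 2 with the length offset alone. The cause was not tested. Rack1 passed with the replicate block (-0.14, adjusted p = 0.015), with the length offset (-0.18, adjusted p = 0.0137) and with both (-0.18, adjusted p = 0.00152). The replicate block also brought past the threshold Nfkbia (0.13, adjusted p = 0.00467, and 0.10, adjusted p = 0.0137, with the length offset) and the interaction of Cxcl10 (-0.31, adjusted p = 0.0381). The glucocorticoid median, -0.03, was 0.10 without WT replicate 1.

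Scaling the libraries to the astrocyte marker sum, added after seeing the data, raises log2 fold changes by about 0.75 and lowers the interaction by about 0.53 by its construction, and by less for genes with no read in a group. Then 14670 genes rose and 334 fell, so 97.8% of the calls were rises, against 47.5% in the main scaling, and the interaction was above 0 for 2854 genes and below 0 for 9632. No member fell in the amyloid, circadian, glucocorticoid, lipid, lysosome, mitochondrially encoded, myelin, NRF2, nuclear oxidative phosphorylation, oligodendrocyte marker, RACK1 partner, translation factor and unfolded protein lists (0 each). In the transcription factor, matrix and glycolysis lists 1 fell, in the synapse list 2, among the astrocyte markers 3, in the cholesterol and receptor lists 4 each and in the homeostatic list 8. Members that rose numbered 71 for ribosomal proteins, 13 for heat shock, 22 for immediate early, 18 for p53, 21 for proliferation and 16 for trophic genes.

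Under that scaling these medians turned positive: amyloid 0.56, transcription factors 0.38, circadian 0.41, matrix 0.37, receptors 0.32, glycolysis 0.47, homeostatic 0.02, lipid 0.46, mitochondrially encoded 0.51, myelin 0.47, NRF2 0.55, nuclear oxidative phosphorylation 0.36, oligodendrocyte markers 0.50, synapse 0.16, unfolded protein 0.63, lysosome 0.65, RACK1 partners 0.67, translation factors 0.69 and glucocorticoid 0.72. So did the log2 fold changes of Amigo2 (0.72), Apoe (0.20), Aqp4 (0.40), C2 (0.02), Clu (0.25), Cnp (0.47), Ctsb (0.62), Ebp (0.53), Glul (0.24), Kcnj10 (0.36), Ldhb (0.02), Mag (0.44), Mog (0.52), Npc1 (0.19), Nr1d1 (0.10), Rack1 (0.61), Slc1a2 (0.09), Slc1a3 (0.03), Sox9 (0.43), Srebf2 (0.39), Vcam1 (0.53) and Vegfa (0.04). Depth limits the T cell markers, which had no read in WT.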
